A study of Mus musculus with 18 samples.

Results

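Genes for blood vessel growth and the response to low oxygen were examined in mouse retinal pigment epithelium (RPE), a single pigmented sheet of cells between the photoreceptors and the vessels of the choroid. The 10 genes, taken by symbol from the 21859 rows of the count table, were the growth factors Vegfa, Vegfb, Vegfc, Pgf, Fgf2 and Angpt1, the inhibitor Serpinf1, the receptors Flt1 and Kdr, and the oxygen-regulated transcription factor Hif1a. Polyadenylated RNA of 18 libraries was sequenced: untreated RPE of young mice (Young, 7 libraries), untreated RPE of old mice (Old, 4), RPE of old mice that received AAV2-tTA alone (Old-Control, 3), and RPE of old mice that received AAV2-tTA;TRE-OSK (Old-OSK, 4). AAV2 is a viral gene carrier of the adeno-associated type, tTA an activator under tetracycline control that switches on the TRE promoter, and OSK the reprogramming factors Oct4 (gene Pou5f1), Sox2 and Klf4. No group received a TRE construct without OSK, so OSK and the added construct cannot be told apart. Strain, ages in months, vector doses, intervals and the promoter that drives tTA are not given in the sources used here. Since no label names the animals behind the replicates, p-values measure the spread between these libraries, which may in part be technical.

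The RPE secretes VEGF-A towards the choroid, where it maintains the fenestrated capillaries that feed the outer retina, and excess VEGF-A drives the vessel growth of neovascular macular degeneration. PEDF, the product of Serpinf1, is secreted by the RPE as a counterweight that restrains vessel growth. HIF-1alpha, encoded by Hif1a, is made continuously and destroyed when oxygen is present, so that its activity is set largely at the protein level, and VEGF-A is among its best known targets.

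Total counts lay between 18104828 and 32348136 per library, and the lowest count of any of the 10 genes in any library was 53. Of the delivered genes, Pou5f1 stood at 50.1 to 97.4 counts per 1000000 of the scaled library size (CPM) in Old-OSK and at no more than 3.75 CPM in any other library. Sox2 likewise separated Old-OSK (70 to 115 CPM) from the rest (at most 15.9 CPM), but Klf4 did not, with 155 to 432 CPM in Old-OSK and up to 216 CPM in untreated Old. All 10 RPE markers examined (Rpe65, Rlbp1, Lrat, Rdh5, Best1, Ttr, Rgr, Otx2, Mitf and Tyrp1) were detected in every group, with summed levels of 40000 to 65500 CPM in Young, 27300 to 47400 CPM in Old, 20600 to 62300 CPM in Old-Control and 15700 to 30000 CPM in Old-OSK. Old-Control replicate 2 stood apart, with the lowest RPE sum of its group and the highest sum of the 6 rod markers of any library (6722 CPM). Old-OSK replicate 4 had the next highest rod sum (6186 CPM), and the other 16 libraries had 60.5 to 2858 CPM. The names of 6 libraries (3 Young, 2 Old-Control, 1 Old-OSK) hold a letter M; they had 4040 to 5493 counts on 4 Y-linked genes, against at most 93 in the other 12.

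Vegfa, Vegfb and Vegfc had similar patterns over the 18 libraries, which share their groups and cell composition (Pearson r of log2 CPM of 0.86 for Vegfa and Vegfb, 0.82 for Vegfb and Vegfc and 0.81 for Vegfa and Vegfc). The bases before their transcription starts are shown because Old-OSK received Klf4, a factor that binds CACCC boxes, and because Hif1a is among the genes examined. The windows are the 250 bases upstream of the outermost start in the RefSeq promoter table (GRCm38.p6), on the strand of the gene, 5′ to 3′, for Vegfa at chr17:46032378-46032627 (minus strand), Vegfb at chr19:6987652-6987901 (minus strand) and Vegfc at chr8:54077282-54077531 (plus strand). Capitals mark the letters CACCC or their reverse complement GGGTG.
Vegfa: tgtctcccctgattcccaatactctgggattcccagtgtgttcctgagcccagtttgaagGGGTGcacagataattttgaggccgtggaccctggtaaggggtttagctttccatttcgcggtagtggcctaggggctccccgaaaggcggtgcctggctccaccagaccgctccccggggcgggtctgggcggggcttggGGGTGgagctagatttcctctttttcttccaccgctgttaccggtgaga
Vegfb: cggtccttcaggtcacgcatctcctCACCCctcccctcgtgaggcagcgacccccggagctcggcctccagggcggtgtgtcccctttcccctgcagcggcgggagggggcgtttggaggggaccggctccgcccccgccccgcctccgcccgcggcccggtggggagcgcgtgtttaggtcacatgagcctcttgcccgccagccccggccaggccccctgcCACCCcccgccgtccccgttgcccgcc
Vegfc: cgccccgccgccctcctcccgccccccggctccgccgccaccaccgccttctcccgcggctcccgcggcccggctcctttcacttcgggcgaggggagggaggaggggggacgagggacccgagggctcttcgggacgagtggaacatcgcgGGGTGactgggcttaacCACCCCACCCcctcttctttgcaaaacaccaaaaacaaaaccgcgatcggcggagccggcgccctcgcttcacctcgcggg

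The window held 2 CACCC boxes before Vegfa, 2 before Vegfb and 3 before Vegfc, counted on both strands. Of all 32851 promoter windows of that length in the table, 52% held at least 1. CACCC boxes also lay before Hif1a (3), Fgf2 (2), Kdr (1), Flt1 (1) and Serpinf1 (1). Pgf had 0 before its outer start and 3 before an inner start. The hypoxia core letters ACGTG or GCGTG, searched on both strands, occurred 0 times before Vegfa and Vegfc and 2 times before Vegfb, and 38.6% of all windows held at least 1 of them. Another Vegfa window, before an inner start at chr17:46025164-46025413 and not shown, held 1 ACGTG and 1 GCGTG. No octamer ATGCAAAT (1.6% of all windows) and no SOX core ACAAAG (16.5%) was found before these genes, and no match overlapped a match of another motif. The hypoxia element for which Vegfa is known lies further upstream than this window. The upstream window of Hif1a, at chr12:73907617-73907866 (plus strand), held 3 matches to ACGTG, of which 1 pair overlapped as the palindrome CACGTG. Promoter windows were matched for 9 of the 10 genes, with Angpt1 unmatched.

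Per kilobase of annotated exon, Vegfa was the most abundant of the 10 transcripts in Young RPE. It stood at 132 ± 18.7 CPM per kilobase (SD, n = 7), followed by Vegfb at 68.9 ± 12.9 and Hif1a at 50.3 ± 4.17 CPM per kilobase. Serpinf1 (8.37 ± 1.86) and Vegfc (7.61 ± 0.97) formed the next tier on this scale and did not differ beyond their spread. Pgf stood at 4.18 ± 0.864 CPM per kilobase. Kdr (1.84 ± 0.805), Angpt1 (1.78 ± 0.315), Fgf2 (1.59 ± 0.305) and Flt1 (1.17 ± 0.594) were lowest and overlapped within their SDs. In Old-OSK the order at the top was closer, with Vegfa at 45.2 ± 11.1, Hif1a at 40.9 ± 8.23 and Vegfb at 40.4 ± 7.06 CPM per kilobase (n = 4), which did not differ beyond their spread. All other levels below are in CPM without division by length.

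Between Old and Young, which asks what differs with age in untreated RPE, Flt1 rose and Angpt1 and Pgf fell. These were 3 of 10 genes called at an edgeR adjusted p under 0.05, 1 higher and 2 lower, where 9.56% of all 15944 genes tested were called (5.4% higher and 4.16% lower). The median log2 fold change (log2FC) was -0.35 over the 10 genes, against 0 over all genes tested. Between Old-OSK and Old-Control, which asks what differs with OSK beyond the activator vector alone (called the OSK comparison below), 0 of 10 were called by edgeR, where 0.728% of all genes were. Unadjusted p was under 0.05 for 2 of the 10 (Vegfa and Vegfb), as for 26.3% of all genes. DESeq2 called the same 2, and 1603 genes over all. With the replicate number as a block, edgeR called 1 of the 10, Kdr (log2FC -1.5, adjusted p = 0.0442), and 461 genes over all. The 10 genes had a median log2FC of -0.32, against -0.03 over all genes. Between Old-Control and Old, 0 of 10 were called by edgeR or DESeq2, 1 (Fgf2) had an unadjusted p under 0.05 (3.74% of all genes), and 0% of all genes were called.

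**Figure D1:**
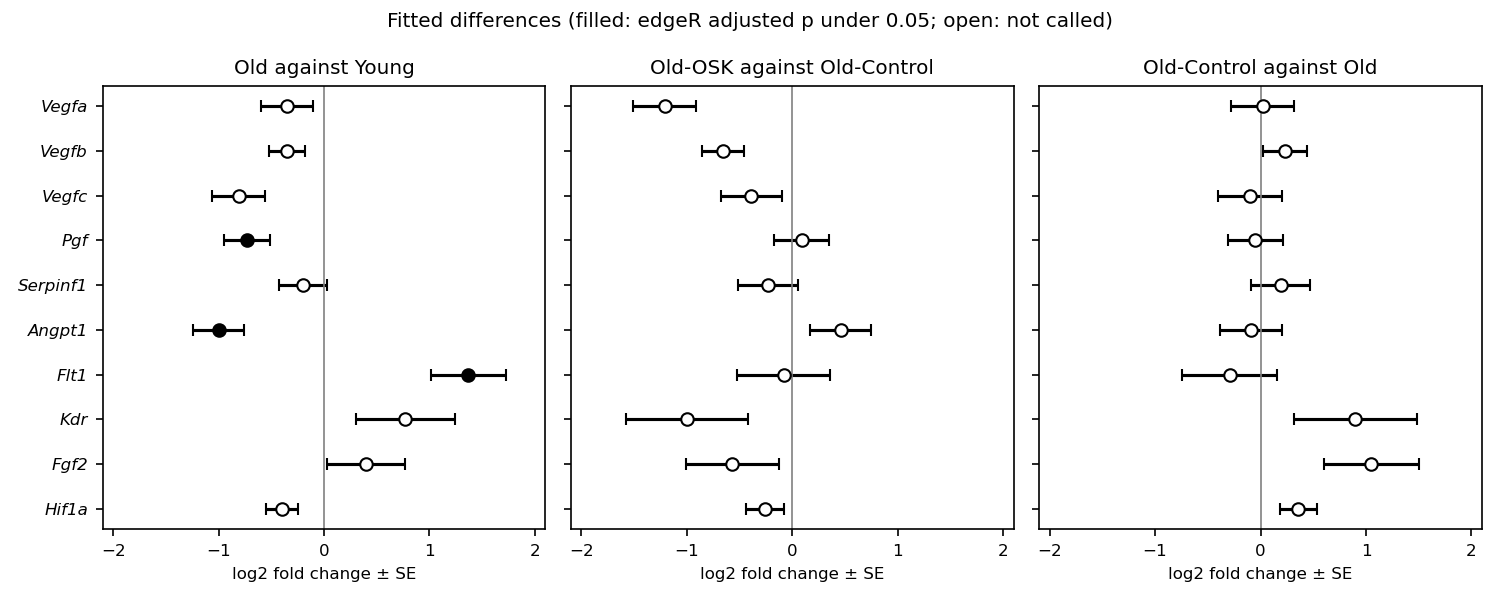
Fitted log2 fold changes with their SE for the 10 genes (rows) in the 3 comparisons (panels), where filled points passed the threshold. Flt1 lies at 1.37, Angpt1 at -1 and Pgf at -0.73 in Old against Young, and Vegfa at -1.21 is the largest difference, not called, in Old-OSK against Old-Control.

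Vegfa, the main endothelial growth factor of the RPE, lies at chr17:46016993-46032369 on the minus strand (GRCm38) and is spliced into isoforms that counts per gene do not separate. Its level ranged from 491 to 703 CPM in Young, with a median of 559 CPM. In Old it was 407, 492, 582 and 293 CPM in replicates 1 to 4. In Old-Control it was 680, 212 and 457 CPM, and in Old-OSK 191, 130, 243 and 211 CPM. All 4 Old-OSK libraries lay below all 7 Young and all 4 Old libraries, whereas Old-Control replicate 2 fell within the Old-OSK range. The order of the group means was Young (567 ± 80.1 CPM), Old-Control (449 ± 234), Old (443 ± 123) and Old-OSK (194 ± 47.5), with neighbouring groups overlapping except Old and Old-OSK.

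Fitted Vegfa in Old-OSK stood at 0.431 times its Old-Control level, a log2FC of -1.21 (SE 0.3) that did not pass over all genes (edgeR adjusted p = 0.0631). Removal of Old-Control replicate 2 gave -1.58 (adjusted p = 0.00418), and removal of Old-OSK replicate 4 gave -1.29 (adjusted p = 0.0323). These removals also raised the number of genes called over all from 116 to 2881 and 1738. Removal of Old-Control replicate 1 gave -0.79 (adjusted p = 0.353), and the call was made in 2 of 7 such fits. DESeq2 gave -1.21 (adjusted p = 0.00938). An edgeR fit of these 2 groups alone gave -1.21 (SE 0.38, adjusted p = 0.189), and M as a covariate gave -1.23 (SE 0.32, edgeR adjusted p = 0.123). Against untreated Old in place of Old-Control the difference was -1.19 (SE 0.29, edgeR adjusted p = 0.0611), and against both old groups as 1 group of 7 it was -1.2 (SE 0.25, adjusted p = 0.017). With age Vegfa did not pass (Old against Young -0.35, SE 0.25, adjusted p = 0.373), nor did it between Old-Control and Old (0.02, SE 0.3, adjusted p = 0.998).

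The level of Vegfa moved with that of the RPE markers (Pearson r of 0.92 over the 18 libraries, as a description). It also had r of 0.85 with 8 Mueller glia markers, which share Rlbp1 with the RPE list, and 0.77 with 8 mural markers. The 6 libraries with the lowest summed RPE markers (at most 30000 CPM, against at least 40000 CPM in the other 12) were the 6 with the lowest Vegfa (at most 293 CPM, against at least 407 CPM). They were the 4 Old-OSK libraries, Old-Control replicate 2 and Old replicate 4. Of the 10 RPE markers themselves, 0 were called for OSK against its control, 2 had positive log2FC and the median was -0.83. The log2FC of Vegfa in that comparison, with the RPE marker sum as a covariate, was -0.43 (SE 0.22, edgeR adjusted p = 0.426). In these bulk libraries, fewer cells of a type and less RNA per cell cannot be told apart.

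Expressed per 1000 CPM of summed RPE markers, Vegfa stood at 11.1 ± 2.24 CPM in Young (SD, n = 7), 10.6 ± 1.59 in Old (n = 4), 9.89 ± 1.25 in Old-Control (n = 3) and 8.27 ± 1.75 in Old-OSK (n = 4). On this scale every group overlapped its neighbours, with Old-OSK at 6.37 to 10.6 and Old-Control at 8.49 to 10.9. With the rod sum as a covariate, the OSK difference of Vegfa stood at -1.13 (SE 0.29, adjusted p = 0.0671). The genes with the pattern most like that of Vegfa over the 18 libraries were Tgfbrap1, Cyp4f17 and Mtss1, with Pearson r of 0.981, 0.976 and 0.976 of log2 CPM. They were the highest of 10233 genes whose log2 CPM averaged 3 or more, and these libraries share their groups and their cell composition.

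**Figure D2:**
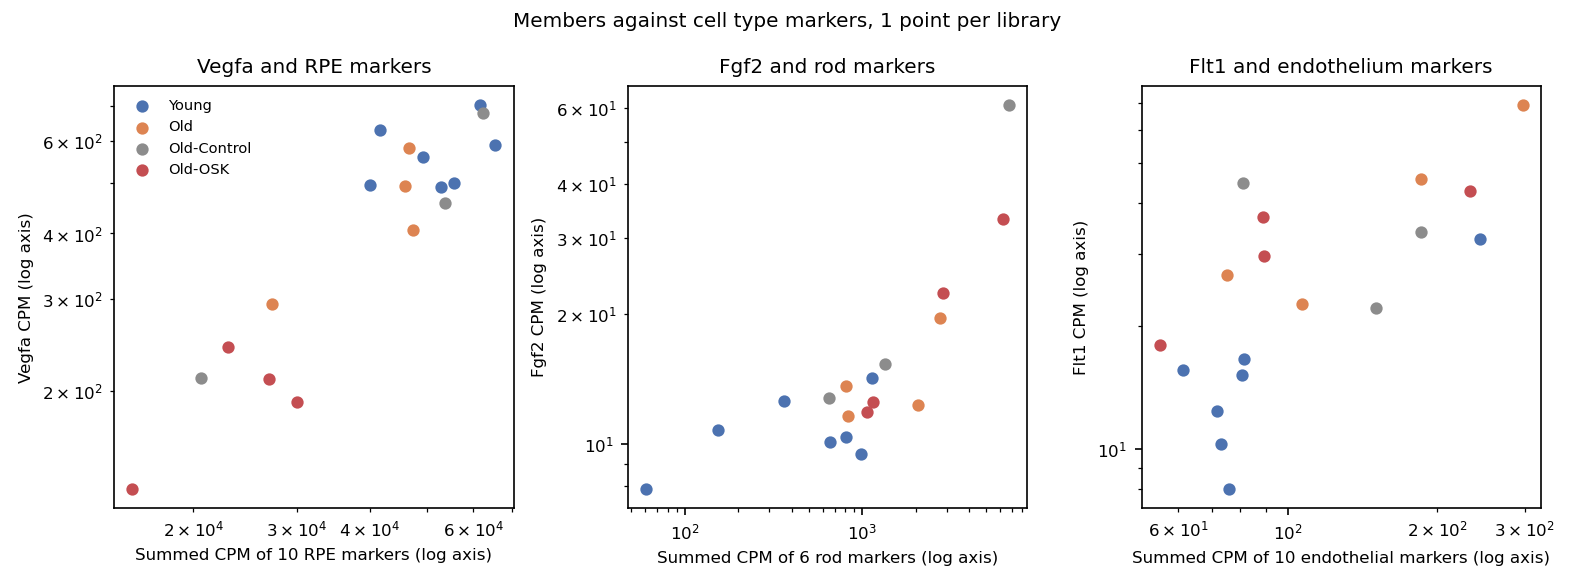
Level of 3 genes in CPM (vertical, log axis) against the summed CPM of a marker list in the same library (horizontal, log axis), 1 point per library, coloured by group. Low Vegfa went with low RPE marker sums, the 4 highest Fgf2 values with the 4 highest rod sums, and the highest Flt1 value (69.1 CPM, Old) with the highest endothelial sum (297 CPM).

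Vegfb, which binds the receptor encoded by Flt1, lies at chr19:6982473-6987651. It had 87.6 to 133 CPM in Young with a median of 114 CPM. Its levels were 95.3, 81.4, 96.9 and 74.1 CPM in Old, 110, 69.9 and 127 CPM in Old-Control, and 68.8, 49.5, 64.5 and 76.4 CPM in Old-OSK. As for Vegfa, Old-Control replicate 2 was the only control library within the Old-OSK range. OSK against its control gave a log2FC of -0.66 (SE 0.2, edgeR adjusted p = 0.0868), and it was -0.89 (adjusted p = 0.0103) without that library and -0.78 (adjusted p = 0.0392) without Old-OSK replicate 4. The other 5 fits without a library missed, at -0.72 to -0.48 (adjusted p = 0.155 to 0.357). DESeq2 called it (adjusted p = 0.0477). It missed in an edgeR fit of these 2 groups alone (-0.66, SE 0.23, adjusted p = 0.198) and with M as a covariate (-0.56, SE 0.19, adjusted p = 0.179). With the RPE marker sum as a covariate it was -0.19 (SE 0.14, adjusted p = 0.541), and per 1000 CPM of RPE markers Vegfb stood at 2.77 ± 0.355 CPM in Old-OSK against 2.51 ± 0.818 CPM in its control, overlapping and in the other order. With age the difference was -0.35 (SE 0.17, adjusted p = 0.19).

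Vegfc, a ligand of the receptor encoded by Flt4 that drives lymphatic growth, lies at chr8:54077606-54187096. It had 14.7 to 21.1 CPM in Young, with a median of 19.1 CPM. It had 14.9, 11.7, 8.42 and 7.68 CPM in Old, 13.7, 5.41 and 10.7 CPM in Old-Control, and 8.08, 4.95, 6.74 and 10.6 CPM in Old-OSK. All Old-Control and Old-OSK libraries and 3 of the 4 Old libraries lay below the lowest Young library, and Old replicate 1 lay within the Young range by a margin of 14.9 to 14.7 CPM. Its log2FC with age was -0.81 (SE 0.25), just short of the threshold (edgeR adjusted p = 0.0505). It passed with DESeq2 (adjusted p = 0.024) and with the RPE marker sum as a covariate (-0.55, SE 0.14, edgeR adjusted p = 0.0309). Within the libraries without M it was -0.71 (adjusted p = 0.147). Per 1000 CPM of RPE markers, Vegfc stood at 0.36 ± 0.0338 CPM in Young and 0.258 ± 0.0569 CPM in Old, and all 4 Old libraries (0.18 to 0.314) lay below the 7 Young libraries (0.322 to 0.408). For OSK the log2FC was -0.39 (SE 0.29, adjusted p = 0.441). It was 0.34 with the RPE marker sum as a covariate (adjusted p = 0.468) and -0.93 without Old-Control replicate 2 and Old-OSK replicate 4 together (adjusted p = 0.0271).

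Across the groups, 3 of the 10 genes (Vegfa, Vegfb and Vegfc) did not overlap between Old-OSK and Young, all lower in Old-OSK, where 15.6% of all genes tested were lower without overlap. Between Old-OSK and Old, 1 of 10 (Vegfa) was lower without overlap, against 4.45% of all genes. Between Old-Control and Young, 2 of 10 (Vegfc and Angpt1) were, against 3.86% of all genes. Comparisons of this kind share libraries with the tested ones.

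**Figure D3:**
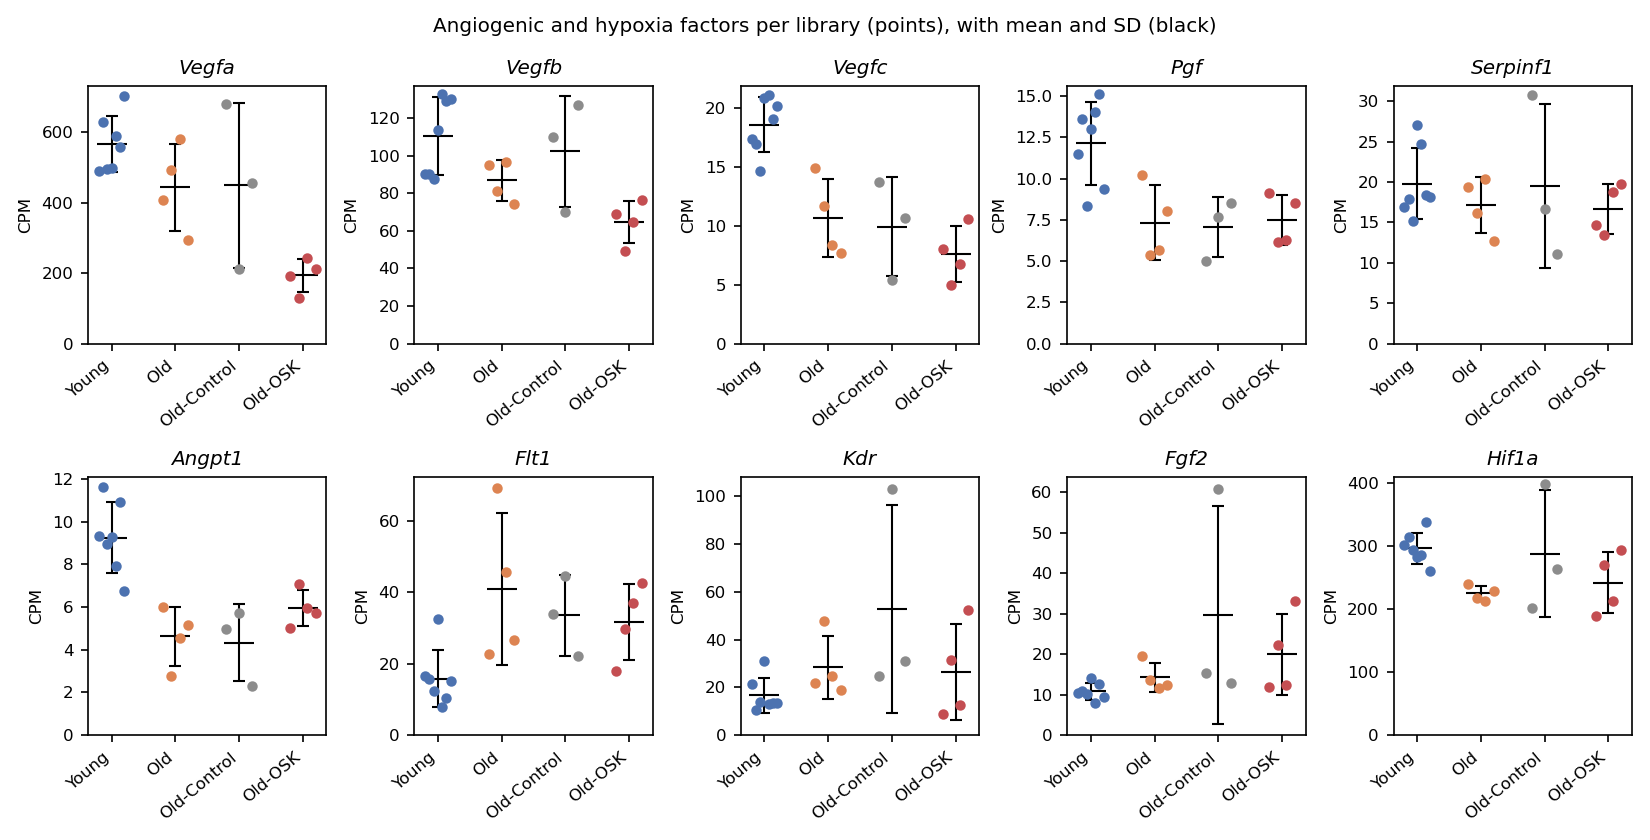
CPM of each of the 10 genes in the 18 libraries (points, 1 panel per gene, each with its own axis from 0), with the mean and SD of each group in black. Vegfa lies at 130 to 243 CPM in Old-OSK and at 491 to 703 CPM in Young, and 1 Old-Control library is high for Kdr (103 CPM) and Fgf2 (60.8 CPM) and low for Vegfa (212 CPM).

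Pgf, placental growth factor and a ligand of the same receptor as Vegfb, lies at chr12:85166635-85177790. It had 8.32 to 15.1 CPM in Young (median 13 CPM), 10.2, 5.38, 5.64 and 8.04 CPM in Old, 5, 7.68 and 8.49 CPM in Old-Control, and 9.1, 6.15, 6.28 and 8.5 CPM in Old-OSK. The groups overlapped: Old replicate 1 lay above 2 Young libraries. Pgf fell with age by 0.73 on the log2 scale (SE 0.22, edgeR adjusted p = 0.0477). The call held in 2 of 11 fits that each left out a library, which spanned -0.93 to -0.61 (adjusted p = 0.0172 to 0.13), and within the libraries without M the value was -0.66 (adjusted p = 0.193). It also missed with median-ratio size factors (adjusted p = 0.0588) and with no filter on low counts (adjusted p = 0.0717). As a description over the 18 libraries, Pgf had a Pearson r of 0.74 with the sum of 6 melanocyte markers, of which 2 fell with age and 0 had a positive log2FC, and of -0.68 with the sum of 10 macrophage and immune markers, of which 8 rose. Their part in the fall of Pgf was not tested. The OSK comparison gave 0.09 (SE 0.26, adjusted p = 0.878).

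Angpt1 encodes angiopoietin 1, which stabilises vessels through the receptor encoded by Tek, and lies at chr15:42424723-42676977. Its exons overlap those of the antisense gene Gm17473 over 737 bases, so reads of both could be mixed in counts without strand. It had 6.75 to 11.6 CPM in Young, with a median of 9.27 CPM. It had 5.99, 2.77, 4.57 and 5.14 CPM in Old, 4.96, 5.72 and 2.3 CPM in Old-Control, and 5.03, 7.07, 5.97 and 5.71 CPM in Old-OSK. Every Old and Old-Control library lay below every Young library, and Old-OSK replicate 2 lay within the Young range. Angpt1 and Hif1a were the 2 of 10 genes that did not overlap between Old and Young, both lower in Old, where 5.61% of all genes were lower without overlap.

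Angpt1 fell from a mean of 9.24 ± 1.64 CPM in Young to 4.62 ± 1.36 CPM in Old (log2FC -1, SE 0.24, edgeR adjusted p = 0.022). It passed in 8 of 11 fits without a library, at -1.15 to -0.82, and not without Old replicate 2 (adjusted p = 0.0673), Old replicate 3 (0.0518) or Old replicate 4 (0.0617). Within the libraries without M it was -1.08 (adjusted p = 0.067). Under OSK the value was 0.46 (SE 0.29, adjusted p = 0.338), and Old-Control against Old -0.09 (SE 0.29, adjusted p = 0.987). Markers of other cell types stand beside it. The 6 melanocyte markers (Mlana, Pmel, Dct, Tyr, Sox10 and Kit, of which pigment genes such as Tyr are also made by the RPE) summed to 3870 to 6730 CPM in Young and 3120 to 3850 CPM in Old without overlap (2 called, lower, 0 of 6 positive, median log2FC -0.46). The 7 stromal markers summed to 151 to 328 CPM in Young and 109 to 192 CPM in Old (1 called, lower, median log2FC -0.59), and 8 mural markers to 305 to 395 and 275 to 329 CPM (1 of 7 tested called, lower, median -0.2). None was at 0 in any group. Over the 18 libraries Angpt1 had a Pearson r of 0.76 with the melanocyte sum, 0.69 with the stromal and 0.12 with the mural sum, as a description. Their part in the fall of Angpt1 was not tested. The most similar patterns over the 18 libraries were those of Reep1, Peg3 and Serpine2 (Pearson r of 0.868, 0.858 and 0.846).

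Serpinf1, the gene of the vessel inhibitor PEDF at chr11:75409769-75422701, had 15.2 to 27.1 CPM in Young (median 18.1 CPM). It had 19.4, 16.1, 20.4 and 12.7 CPM in Old, 30.8, 16.7 and 11.1 CPM in Old-Control, and 14.7, 13.4, 18.7 and 19.8 CPM in Old-OSK. All 4 groups overlapped. The log2FC was -0.2 (SE 0.23, edgeR adjusted p = 0.602) with age and -0.23 (SE 0.28, adjusted p = 0.672) for OSK, and the latter turned to 0.26 without Old-Control replicate 1. As a description over the 18 libraries, Serpinf1 had a Pearson r of 0.76 with the stromal sum and 0.46 with the RPE sum. The part of stromal RNA in its level was not tested.

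Flt1 encodes VEGFR1, which also exists as a soluble decoy that counts per gene do not separate, and lies at chr5:147561604-147726011. It had 7.99 to 32.6 CPM in Young, with a median of 15.2 CPM. It had 22.6, 69.1, 45.6 and 26.6 CPM in Old, 33.8, 44.7 and 22.1 CPM in Old-Control, and 18, 29.6, 36.9 and 42.6 CPM in Old-OSK. Every Old library lay above 6 of the 7 Young libraries, and Young replicate 4 (32.6 CPM) lay within the Old range. Flt1 rose 2.58-fold with age (log2FC 1.37, SE 0.36, edgeR adjusted p = 0.0287). The call held in 6 of 11 fits without a library, from 1 without Old replicate 2 (adjusted p = 0.109) to 1.65 without Young replicate 4 (adjusted p = 0.008). Within the libraries without M it was 1.09 (adjusted p = 0.189).

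Endothelial markers (Pecam1, Cdh5, Cldn5, Plvap, Emcn, Egfl7, Esam, Tie1, Tek and Ecscr), none at 0 in any group, stand beside this result. Their summed level was 61.4 to 244 CPM in Young, 75.4 to 297 CPM in Old, 81 to 186 CPM in Old-Control and 55 to 232 CPM in Old-OSK. With age 10 of 10 had a positive log2FC, with a median of 0.69, and 0 of 10 were called. The highest sums of Young, Old and Old-OSK belonged to Young replicate 4, Old replicate 2 and Old-OSK replicate 4, which also had the highest Flt1 of their groups. In Old-Control, replicate 2 had the highest Flt1 (44.7 CPM) but the lowest endothelial sum (81 CPM). Over the 18 libraries Flt1 had a Pearson r of 0.7 with the endothelial sum, 0.66 with the rod sum and 0.59 with the macrophage and immune sum, as a description. Rod markers had a median of 1.37 (6 of 6 positive, 0 called), and with the rod sum as a covariate Flt1 stood at 1.15 (SE 0.36, adjusted p = 0.0956). Of 10 macrophage and immune markers, 8 rose with age (median log2FC 1.96), and their sum was 484 to 681 CPM in Young and 685 to 1160 CPM in Old. The part of endothelial and immune RNA in the rise of Flt1 was not tested. Over the 18 libraries the patterns most like Flt1 were those of Ptpru, Lmo2 and Slfn5 (Pearson r of 0.89, 0.83 and 0.83). The OSK comparison of Flt1 gave -0.08 (SE 0.44, adjusted p = 0.941).

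Kdr, the gene of VEGFR2, the main signalling receptor of VEGF-A, lies at chr5:75932827-75978458. It had 10.4 to 31.2 CPM in Young (median 13.6 CPM), and 21.7, 47.9, 24.8 and 18.9 CPM in Old. It had 24.6, 103 and 30.9 CPM in Old-Control and 8.71, 31.6, 12.6 and 52.5 CPM in Old-OSK. The highest library of each of these vector groups was the one with the highest rod sum, Old-Control replicate 2 and Old-OSK replicate 4. Their endothelial sums were the lowest of Old-Control (81 CPM) and the highest of Old-OSK (232 CPM). In Old, replicate 2 had the highest Kdr and endothelial sum (297 CPM) but the lowest rod sum (808 CPM). Over the 18 libraries Kdr had a Pearson r of 0.74 with the sum of 6 cone markers, 0.64 with the rod sum and 0.6 with the endothelial sum, as a description. The part of these cell types in its level was not tested. The log2FC was 0.77 with age (SE 0.47, edgeR adjusted p = 0.299) and -1 for OSK (SE 0.58, adjusted p = 0.289). The OSK value shrank to -0.09 when Old-Control replicate 2 was removed (adjusted p = 0.92). Blocked by replicate number over the 6 libraries that share one, Kdr was called lower in Old-OSK (log2FC -1.5, SE 0.15, adjusted p = 0.0442), and the same 6 libraries without the block gave -1.59 (SE 0.71, adjusted p = 0.239). At each of the 3 shared numbers Old-OSK was the lower (8.71 against 24.6, 31.6 against 103 and 12.6 against 30.9 CPM). No label pairs these libraries, and at numbers 2 and 3 only the Old-Control library holds M in its name. Old-OSK replicate 4 (52.5 CPM), the highest of its group, is left out of the blocked fit.

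Fgf2, the gene of basic fibroblast growth factor at chr3:37348346-37410108, shares 640 exon bases with Nudt6 on the opposite strand, and 255 with Gm43439 on its own strand, so its counts are uncertain there. It had 7.87 to 14.2 CPM in Young (median 10.4 CPM), 19.6, 13.6, 11.6 and 12.3 CPM in Old, 15.3, 60.8 and 12.8 CPM in Old-Control, and 11.9, 22.4, 12.5 and 33.1 CPM in Old-OSK. The 4 libraries with the highest Fgf2 (at least 19.6 CPM, against at most 15.3 CPM in the other 14) were those with the highest rod sums (at least 2740 CPM, against at most 2070 CPM), in the same order. No rod marker (Gnat1, Pde6b, Pde6g, Sag, Nrl and Rcvrn) was at 0 in any group, and their sums were 60.5 to 1140 CPM in Young, 808 to 2740 CPM in Old, 650 to 6720 CPM in Old-Control and 1070 to 6190 CPM in Old-OSK. Old-Control against Old gave a log2FC of 1.05 (SE 0.45, edgeR adjusted p = 0.9), which rested on Old-Control replicate 2: without it the value was -0.03. For OSK the value was -0.57 (SE 0.44, adjusted p = 0.455) and 0.49 without that library (adjusted p = 0.338). With age the value was 0.4 (SE 0.37, adjusted p = 0.499), and -0.22 with the rod sum as a covariate. The patterns most like Fgf2 were those of Agtpbp1, Bbs5 and Bbs9 (Pearson r of 0.975, 0.957 and 0.955 over the 18 libraries).

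Hif1a, at chr12:73901375-73947530, encodes the oxygen-labile subunit of HIF-1. Its exons overlap the antisense gene Gm15283 over 330 bases and Gm49321 on its own strand over 148 bases. It had 261 to 338 CPM in Young, with a median of 294 CPM. It had 240, 217, 213 and 229 CPM in Old, 201, 398 and 264 CPM in Old-Control, and 189, 270, 213 and 293 CPM in Old-OSK. All 4 Old libraries lay below the 7 Young libraries, while both vector groups spread across these ranges. With age its log2FC was -0.4 (SE 0.15) and did not pass (edgeR adjusted p = 0.097). It passed in a fit of these 2 groups alone (-0.38, SE 0.08, adjusted p = 0.0187) and with the RPE marker sum as a covariate (-0.52, SE 0.12, adjusted p = 0.0136). It passed in 0 of 11 fits without a library (adjusted p = 0.106 to 0.238). With M as a covariate it was -0.31 (SE 0.15, adjusted p = 0.229), and within the libraries without M -0.4 (adjusted p = 0.057). For OSK it was -0.26 (SE 0.18, adjusted p = 0.403), and 0.02 without Old-Control replicate 2 (398 CPM). Between Old-Control and Old it was 0.36 (SE 0.18, adjusted p = 0.9).

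The other genes of these pathways were described by lists, each read against the share of all genes called. Of 8 further HIF subunits and regulators, 2 were called with age, against 9.56% of all genes. Egln3, a prolyl hydroxylase that marks HIF for destruction, rose from a Young mean of 14.9 ± 12.9 CPM to an Old mean of 87.4 ± 88.5 CPM (log2FC 2.55, SE 0.73, edgeR adjusted p = 0.0398), with overlapping libraries (12.4 to 215 CPM in Old) and 1.58 without Old replicate 4 (adjusted p = 0.272). Vhl, which recognises hydroxylated HIF, fell from 50.2 ± 5.86 to 38.7 ± 3 CPM (-0.37, SE 0.1, adjusted p = 0.0304) without overlap. Its call held in 5 of 11 fits without a library.

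Of 36 hypoxia-responsive genes, 1 rose and 1 fell with age, where 9.56% of all genes were called, and their median log2FC was 0.06, against 0 over all genes. Pfkfb3, an activator of glycolysis, rose by 1.23 (SE 0.37, edgeR adjusted p = 0.0449), and by 0.74 without Old replicate 4 (adjusted p = 0.295). Vldlr, a lipoprotein receptor, fell from 239 ± 28.5 CPM to 167 ± 36.2 CPM with age (log2FC -0.52, SE 0.14, adjusted p = 0.0353). Its call held in 3 of 11 fits without a library. For OSK 1 of 36 was called, against 0.728% of all genes, again Vldlr, which fell from 191 ± 23.3 CPM in the control libraries to 109 ± 18.7 CPM without overlap (5.84% of all genes were lower without overlap, log2FC -0.81, SE 0.17, adjusted p = 0.0342). That call held in 2 of 7 fits without a library (-0.98 to -0.72, adjusted p = 0.00816 to 0.225), and with the RPE marker sum as a covariate Vldlr stood at -0.51 (SE 0.14, adjusted p = 0.186). The median of the 36 was -0.21, against -0.03 over all genes, with 14 positive and 21 negative.

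Of 8 angiogenesis inhibitors, 3 fell with age and 0 rose, all 8 had a negative log2FC, and their median was -0.52. Of all genes tested 4.16% were called lower, and their median was 0. Sparc, a matrix protein that binds VEGF-A, fell from 926 ± 96.4 to 441 ± 78.8 CPM (log2FC -1.07, SE 0.14, edgeR adjusted p = 0.000322) and passed in all 11 fits without a library. Col4a3, the source of tumstatin, went from 278 ± 29.8 to 145 ± 41.2 CPM (-0.94, SE 0.24, adjusted p = 0.0264). Col18a1, the source of endostatin, went from 760 ± 73.6 to 526 ± 112 CPM (-0.53, SE 0.16, adjusted p = 0.0447). None of the 3 overlapped between Old and Young, where 5.61% of all genes were lower without overlap. The call of Col4a3 held in 9 of 11 fits without a library and that of Col18a1 in 1 of 11, the furthest from the threshold for both without Old replicate 4 (adjusted p = 0.116 and 0.195). Young holds 3 libraries with M and Old none: with M as a covariate Sparc kept its call (log2FC -0.98, adjusted p = 0.0012), and Col4a3 (adjusted p = 0.0589), Col18a1 (0.109), Vhl (0.0803), Egln3 (0.103), Pfkfb3 (0.107) and Vldlr (0.0963) lost it. Within the libraries without M, Sparc also passed (adjusted p = 0.0339) and these 6 missed (0.0791 to 0.223). The melanocyte and stromal marker sums given beside Angpt1 had lower medians in Old (3330 against 5290 CPM and 171 against 225 CPM), and their part in these falls was not tested. For OSK 0 of 8 were called.

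With age, 0 genes were called among 4 angiopoietin and Tie genes, 6 FGF1 and FGF receptor genes, 4 candidate PEDF receptors, 9 other angiogenic factors and the 4 genes of VEGF-D, VEGFR3 and the neuropilins. For OSK, 1 gene of these 5 lists was called, against 0.728% of all genes (0.32% lower): Apln, the ligand of the apelin receptor. Its mean was 4.88 ± 3.91 CPM in Old-Control, and it fell to 1.32 ± 0.388 CPM in Old-OSK (log2FC -1.89, SE 0.4, edgeR adjusted p = 0.035). The groups overlapped (1.69 to 9.24 CPM in Old-Control and 0.93 to 1.7 CPM in Old-OSK), and the value was -1.03 without Old-Control replicate 1 (adjusted p = 0.332). The call held in 2 of 7 fits without a library and in 9 of 13 other fits. Against untreated Old in place of Old-Control the value was -1.84 (SE 0.38, edgeR adjusted p = 0.0283). With the replicate number as a block it was -1.47 (SE 0.47, adjusted p = 0.127), and with the RPE marker sum as a covariate -0.96 (SE 0.38, adjusted p = 0.349). The median of the PEDF receptor candidates there was 0.94, with 4 of 4 positive. Between Old-Control and Old, 0 genes of any of these lists were called.

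**Figure D4:**
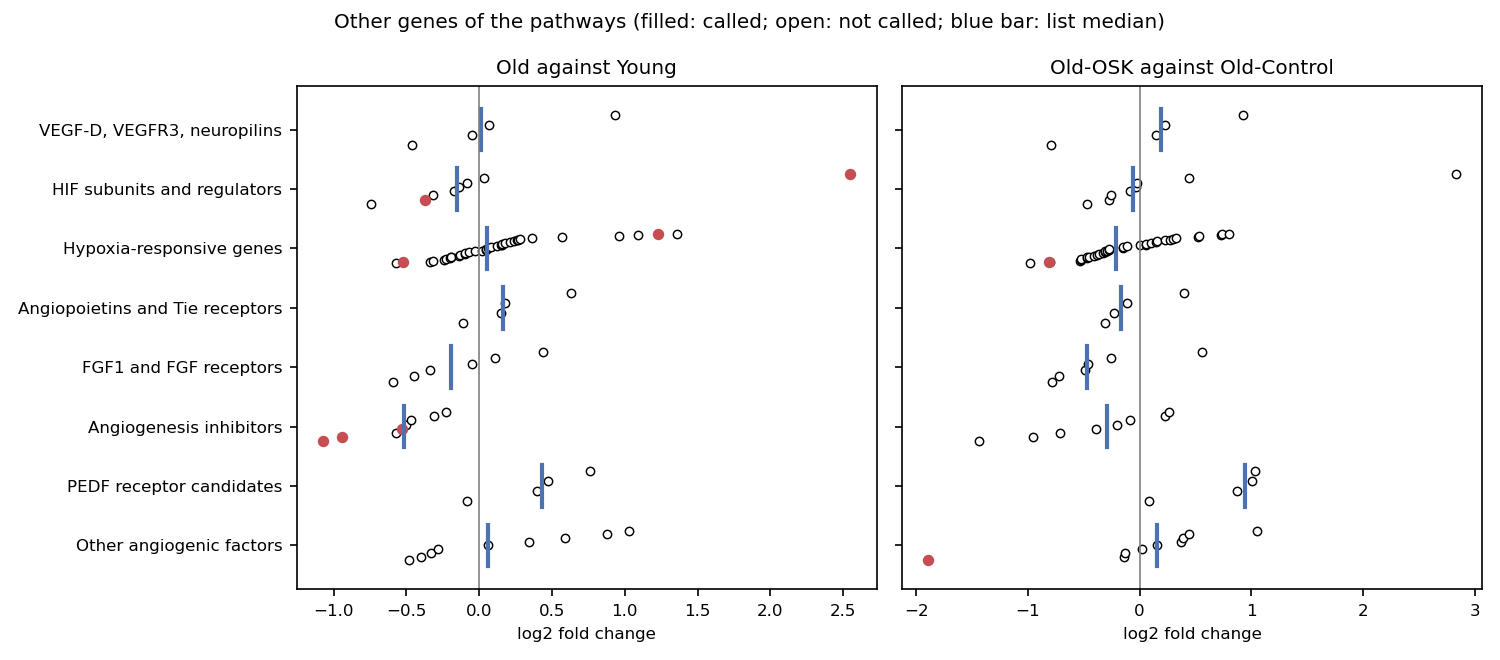
Log2 fold changes of the other pathway genes, 1 point per gene and 1 row per list, in Old against Young (left) and Old-OSK against Old-Control (right), where filled points were called and blue bars are list medians. The 8 angiogenesis inhibitors lie below 0 with age (median -0.52), and Egln3 is the point at 2.55 on the left and at 2.83, not called, on the right.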

How the data were processed

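Counts per gene were deposited by the authors as 1 table of raw counts for the 18 libraries. Reads were handled with STAR 2.7.1a and featureCounts 1.6.2 on a mouse build (GRCm38, mm10), per the submitters' processing notes, which also name a human build. The annotation and strand setting are not given in the sources used here. Full-length cDNA was amplified and fragmented by transposase, per the labels' protocols, and no molecular identifiers are reported, so intervals from counts would understate the error.

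The 18 columns were matched by title, and 0 columns were left unused. Rows were filtered with filterByExpr (minimum count 10, minimum total 15), which left 15944 genes with all 10 members, and scaled by TMM. All 4 groups were fitted together in edgeR 4.0.16 (R 4.3.3, limma 3.58.1) with glmQLFit and glmQLFTest, and p-values were adjusted by Benjamini-Hochberg over all genes. SE is the log2 fold change divided by the square root of F. CPM uses the TMM-scaled library size. The test was checked on simulated counts. DESeq2 1.42.0 was an alternative.

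No replicate pair agreed within sampling noise (lowest chi-square per gene 20.2), and none were merged. Old-OSK and Old-Control libraries of the same number deviated together from their group means (r = 0.103, 0.421 and 0.339 over genes, each above 0.1). This is the only ground for the block, and libraries of unequal number were not compared. Replicates 2 and 3 of Old-Control hold M in their names and those of Old-OSK do not, so their Y-linked counts differ. Equal numbers there do not mark the same animal. The main fit has no block, and the blocked fit is an alternative.

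All 10 members are named. Pathway genes are named where called, up to 4 per list and comparison. Nearest patterns are the 3 genes with the highest Pearson r of log2 CPM (prior count 2), given for 4 members. Members and lists were chosen with earlier results of these data known. Gene positions and exon lengths are from GENCODE (GRCm38), and Ero1a was matched to the row Ero1l. 1 marker of the rod list and 1 of the melanocyte list are not reported here, and the sums were computed without them.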

Additional observations from a re-analysis of the deposited data

Results flagged for a closer look

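Of 54 groups examined (18 named genes in Young, Old and Old-OSK), 2 held a library set apart from the rest of its group by Dixon's criterion, which chance gives in about 1 in 20 groups. Flt1 in Young replicate 4 stood at 32.6 CPM, and the other 6 Young libraries at 7.99 to 16.6 CPM. Pfkfb3 in Old replicate 4 stood at 24.4 CPM, and the other 3 Old libraries at 8.57 to 9.8 CPM.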

How the results depend on the processing

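Between Old and Young, 3 genes were called. That count was 1 with M or with the rod sum as a covariate and 0 within the libraries without M. Over all genes, these fits called 600, 464 and 191 in turn, against 1524 in the main fit. Leaving out single libraries gave 0 to 4 of the 10 genes, and 393 to 2140 over all genes. The replicate numbers pair no libraries there, and the replicate block in the 8 equally numbered libraries gave 0 of the 10, as did the same libraries without the block. Between Old-OSK and Old-Control, where 0 were called, the count was 2 with DESeq2, 1 with the replicate block (Kdr), 3 without Old-Control replicate 2 and Old-OSK replicate 4 together and 1 against both old groups as 1 group. Over all genes, these fits called 1603, 461, 3856 and 776 in turn, against 116 in the main fit. Leaving out single libraries gave 0 to 2 of the 10 genes, and 13 to 2881 over all genes. The block changed no other call of the 10 genes in that comparison. Old-Control against Old stayed at 0 in every fit.

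No value that changed sign had been called. With age, Fgf2 was -0.22 with the rod sum. Between Old-OSK and Old-Control, the RPE sum gave 0.34 for Vegfc and 0.13 for Serpinf1, untreated Old as the control gave 0.49 for Fgf2 and 0.1 for Hif1a, and leaving out both rod-rich libraries gave 0.1 for Fgf2. Leaving out single libraries there gave -0.11 to 0.24 for Pgf, -0.51 to 0.26 for Serpinf1, -0.31 to 0.16 for Flt1, -0.97 to 0.49 for Fgf2 and -0.46 to 0.02 for Hif1a. Between Old-Control and Old, Angpt1 was 0.03 with M, Vegfa was -0.29, Pgf 0.03 and Serpinf1 -0.06 with the block, and Vegfa was -0.14 in those libraries without the block and -0.1 with the RPE sum. Leaving out single libraries there gave -0.41 to 0.36 for Vegfa, -0.4 to 0.2 for Vegfc, -0.2 to 0.15 for Pgf, -0.3 to 0.47 for Serpinf1, -0.35 to 0.21 for Angpt1, -0.55 to 0.08 for Flt1, -0.03 to 1.28 for Kdr and -0.03 to 1.41 for Fgf2.

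Over all genes, 1524 were called with age (0 with the block, 393 without Old replicate 4, 2452 with DESeq2) and 116 between Old-OSK and Old-Control (2 in a fit of these groups alone, 13 without Old-Control replicate 1, 2881 without Old-Control replicate 2, 461 with the block, 1603 with DESeq2). The covariates other than M, the joint removal and the other control groups were chosen after seeing the data. A fit within the libraries without M was not run where it left a group with 1 library. The causes of these changes were not tested.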
